A study of Mus musculus with 21 samples.

Results

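The immunoglobulin and T cell receptor gene segments were described in sorted mouse dendritic cells (DCs) of an Aire-reporter strain. The members were the variable (V) and joining (J) segments of the heavy, kappa and lambda immunoglobulin loci and of the alpha, beta, gamma and delta T cell receptor loci, chosen by symbol, together with the constant genes Ighm, Ighd, Igkc, Trac, Trbc1, Trbc2 and Trdc. They numbered 619 of the 55471 genes in the count table, 365 of them immunoglobulin and 254 T cell receptor genes, and 174 are annotated as pseudogenes. Counts were found for 402 members, 250 of immunoglobulin and 152 of T cell receptor loci, and 217 had no count in any library. The symbols of the gamma locus mostly begin with Tcrg, so that only 1 gamma V segment, Trgv2, is a member.

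RNA sequencing was done on 21 libraries in 7 groups of 3 biological replicates. Lymph node DCs, gated as positive for CD45, CD11c and MHCII, were taken as reporter-positive (AGF+) or reporter-negative (AGF-) cells. Donor mice were AGF-KI/+ (KI/+ below) or AGF-KI/-, a genotype named AireKO in the titles. Bone marrow AGF+ cells of both genotypes came from the B220-negative, CD24-positive fraction with low or no CD11b, and marrow total DCs of KI/+ mice from the B220-negative, CD11c- and MHCII-positive fraction, which the design text calls AGF- cells. Per the labels all mice were 6 weeks old males on the C57BL/6 strain, and all carried the reporter knock-in allele, so that no group lacks it. Beyond B220 in marrow, the labels name no marker that removed B or T cells.

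Libraries held 4164451 to 6055097 counts, and levels are given as CPM, counts scaled to TMM effective library sizes, on which a count of 0 in a library allows up to 0.456 to 0.764 CPM (3 counts of the total, for counting error only). Aire stood at 98.7 to 132 CPM in lymph node and 79.3 to 115 CPM in marrow AGF+ cells of KI/+ mice, at 22.7 to 26.5 and 11.5 to 19.6 CPM in those of AireKO mice, and at or below 14.9 CPM in all other libraries. Against the label of male mice, the 7 libraries numbered 2, 1 in each group, had 2021 to 3993 CPM of Xist and at most 0.766 CPM over the Y-linked genes, while the other 14 had up to 31.1 and 329 to 566 CPM. Counts of members called without those libraries are given beside the comparisons between sorts and tissues and were 0 in each genotype comparison. Summed conventional DC markers (10 genes, among them Flt3, Itgax and Cd74) were at 4589 to 10062 CPM in every library. In bulk RNA, fewer cells of a type and less RNA per cell cannot be told apart.

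Antigen receptor genes are assembled in developing lymphocytes by V(D)J recombination, in which the RAG proteins join a V, sometimes a D, and a J segment upstream of a constant gene. A J segment that has been joined is read as part of the receptor transcript, and the V segment gives that transcript its leader and most of its variable domain. Before or without a V join, transcripts known as germline or sterile transcripts can start upstream of unjoined J and constant genes or at unjoined V segments. Conventional DCs are not known to assemble complete receptors, whereas D-to-J joined heavy chain genes are known from plasmacytoid DCs and other cells with a lymphoid past. Counts per gene do not tell joined from unjoined transcripts.

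The short J segments are printed first, because their levels relative to the constant genes set the marrow AGF+ cells apart below. The 4 heavy chain J segments lie on chromosome 12 of GRCm38, minus strand, with Ighj4 starting at 113428514 and Ighj1 ending at 113429833. The sequences are the GENCODE transcripts, 5′ to 3′. Capitals mark TGGGG followed by any 4 bases and GG, which encodes the tryptophan and glycines of the conserved J motif and was searched on the coding strand alone, where 7 of 94 J segments hold it.
Ighj1: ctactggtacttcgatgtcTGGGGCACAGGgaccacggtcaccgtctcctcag
Ighj2: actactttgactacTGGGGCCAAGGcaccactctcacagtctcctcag
Ighj3: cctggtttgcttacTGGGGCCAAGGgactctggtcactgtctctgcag
Ighj4: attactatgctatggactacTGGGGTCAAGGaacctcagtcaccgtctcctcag
The delta J segments lie on chromosome 14, plus strand, Trdj1 at 54123138 to 54123188 and Trdj2 at 54136779 to 54136837. Capitals mark TTTGG followed by any 4 bases and GG, with phenylalanine in the first place, which 45 of the 94 J segments hold.
Trdj1: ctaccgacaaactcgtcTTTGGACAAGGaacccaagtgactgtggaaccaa
Trdj2: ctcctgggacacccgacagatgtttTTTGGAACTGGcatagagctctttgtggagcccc

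A pair of heavy chain V segments is shown because their counts lay almost entirely in marrow AGF+ cells. Ighv1-56 (chromosome 12, 115242802 to 115243235, minus strand) and Ighv1-77 (115861867 to 115862355, minus strand) have transcripts of 294 bases that differ at 26 positions, an identity of 91.2%, and capitals mark the bases that differ. The nearest other member was Ighv1-62-1 for Ighv1-56 (94.22% identity) and Ighv1-75 for Ighv1-77 (95.24%), so that reads from a close copy could be counted to either gene.
Ighv1-56: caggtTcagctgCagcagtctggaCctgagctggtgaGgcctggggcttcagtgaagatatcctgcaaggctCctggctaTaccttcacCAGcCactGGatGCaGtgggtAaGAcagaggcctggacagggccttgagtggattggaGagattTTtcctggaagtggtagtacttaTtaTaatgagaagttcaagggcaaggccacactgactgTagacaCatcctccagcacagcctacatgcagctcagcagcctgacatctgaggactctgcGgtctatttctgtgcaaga
Ighv1-77: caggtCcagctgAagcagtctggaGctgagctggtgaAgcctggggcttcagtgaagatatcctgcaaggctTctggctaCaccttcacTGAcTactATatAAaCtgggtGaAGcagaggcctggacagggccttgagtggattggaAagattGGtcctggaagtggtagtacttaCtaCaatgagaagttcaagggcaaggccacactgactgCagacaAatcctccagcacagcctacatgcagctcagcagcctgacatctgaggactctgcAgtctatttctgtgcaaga

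Summed over all immunoglobulin members, lymph node AGF- cells had the highest levels, marrow AGF+ cells came next, lymph node AGF+ cells were lower, and marrow total DCs were lowest. The KI/+ libraries of lymph node AGF- cells stood at 831, 1514 and 917 CPM, and the AireKO ones at 828, 1359 and 2737 CPM. In marrow AGF+ libraries the sum was 483, 573 and 598 CPM for KI/+ mice, against 381, 453 and 416 CPM for AireKO mice. Every lymph node AGF- library was above every marrow AGF+ library. The sums of lymph node AGF+ libraries were 134, 156 and 164 CPM for KI/+ mice, against 150, 170 and 181 CPM for AireKO mice, and marrow total DCs 62.5, 84.6 and 28.4 CPM. Genotypes overlapped within lymph node AGF+ and AGF- cells, and in marrow AGF+ cells each AireKO library lay below each KI/+ library.

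The T cell receptor members followed the same order of group means at lower levels, with more spread in lymph node. The KI/+ lymph node AGF- libraries summed to 75.4, 20.4 and 144 CPM, the AireKO ones to 134, 26.9 and 189 CPM, so that both libraries numbered 2 lay below every marrow AGF+ library. Marrow AGF+ libraries were tight, at 39.8, 43.3 and 41.0 CPM for KI/+ mice, against 29.1, 34.2 and 30.8 CPM for AireKO mice. Lymph node AGF+ libraries summed to 4.26, 1.52 and 9.61 CPM (KI/+) or to 2.01, 1.61 and 15.98 CPM (AireKO), and marrow total DCs 0.853, 2.66 and 2.31 CPM. The lymph node AGF+ and marrow total DC libraries overlapped.

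**Figure D1:**
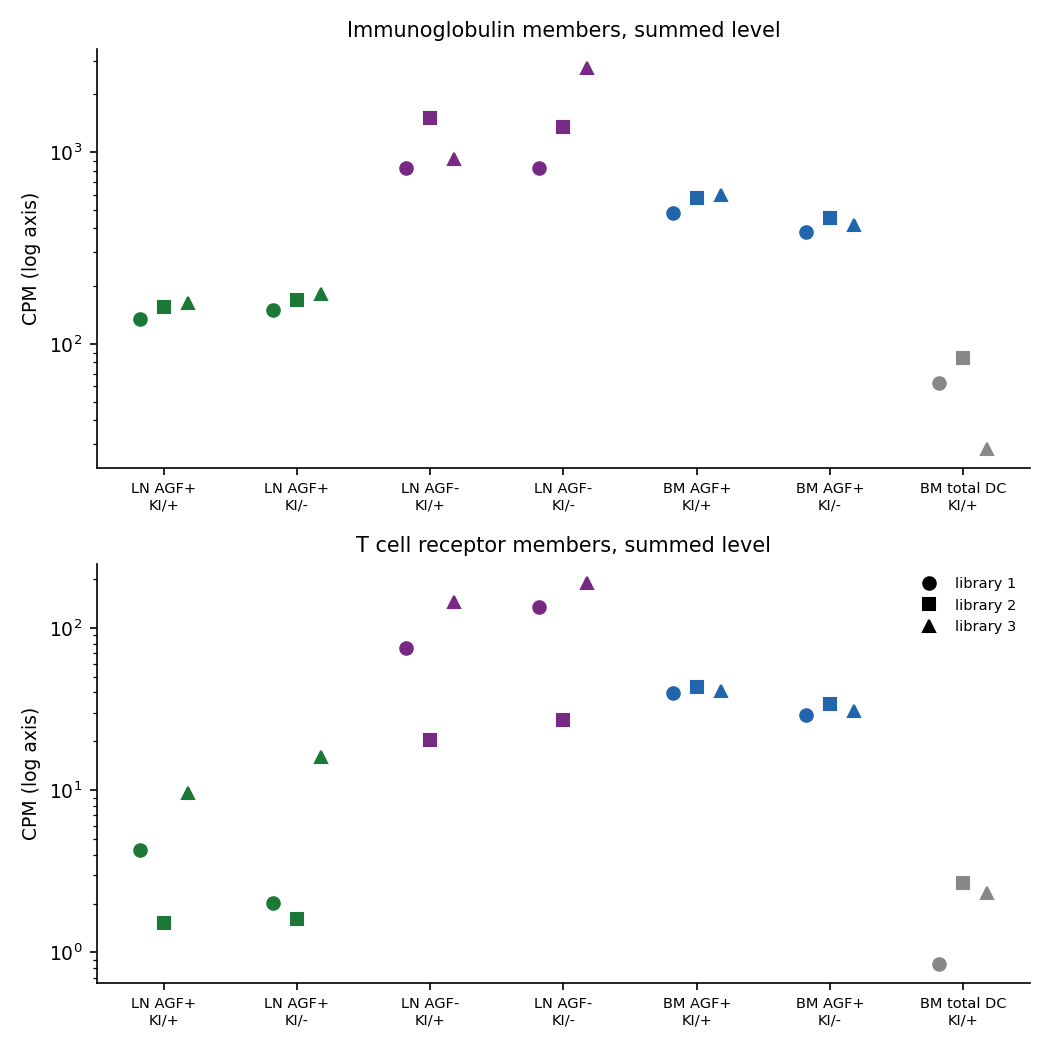
Summed level of all immunoglobulin members (upper panel) and all T cell receptor members (lower panel) in each of the 21 libraries, in CPM on a log axis, with 1 point per library and the library number as the symbol. Immunoglobulin levels run from 28.4 CPM in a marrow total DC library to 2737 CPM in library 3 of AireKO lymph node AGF- cells, and the T cell receptor sums of both lymph node AGF- libraries numbered 2, at 20.4 and 26.9 CPM, lie below the others of that sort.

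To ask how receptor transcripts differ between reporter-positive and reporter-negative lymph node DCs, AGF+ cells were compared with AGF- cells in each genotype. In KI/+ mice the constant genes of every locus were lower in AGF+ cells. Ighm, the IgM heavy chain constant gene (chromosome 12, 113418558 to 113422730), stood at 117, 127 and 128 CPM in AGF+ and at 456, 838 and 512 CPM in AGF- cells (log2 fold change -2.28 ± 0.23 SE, adjusted p = 1.47e-05). Igkc, the kappa light chain constant gene (chromosome 6, 70726435 to 70726966), stood at 1.89, 7.15 and 11.8 CPM against 144, 300 and 176 CPM (-4.96 ± 0.82, adjusted p = 7.74e-04). Groups did not overlap for either gene, and the difference in kappa was larger than that in IgM, without a test of that difference. Ighd, the IgD constant gene, fell by 3.32 ± 0.39 on the log2 scale (adjusted p = 4.81e-05).

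Of the T cell receptor constant genes, Trdc (delta) had 0, 0 and 0.655 CPM in KI/+ AGF+ cells and 15.3, 0.807 and 34.7 CPM in AGF- cells, a 97.4-fold lower count with a 95% counting interval of 32.9 to 476 (adjusted p = 0.00578). Its fitted log2 fold change was -6.43, and ran from -9.52 without library 3 of the AGF+ cells to -5.34 without library 3 of the AGF- cells. Trbc1 (beta) fell by 4.76 ± 1.09 (adjusted p = 0.0068), from 12.2, 2.82 and 19.9 CPM in AGF- to 0.473, 0 and 0.873 CPM in AGF+ cells, and by 4.12 to 5.51 with single libraries left out, the latter without library 3 of the AGF+ cells. Trac (alpha) and Trbc2 also passed the test, at -3.14 ± 1.05 and -3.16 ± 1.06 (adjusted p = 0.0478 and 0.047), but both lost the call when any 1 of 5 libraries was left out, with adjusted p up to 0.206 and 0.229 without library 3 of the AGF- cells, and by DESeq2 (0.0562 and 0.119). Without library 3 they differed by -2.37 and -2.23 (AGF- cells) or by -3.87 and -4.09 (AGF+ cells). The beta constant genes are close copies, with the first 259 of 512 coding bases of Trbc1 identical to those of Trbc2, so that their split is uncertain.

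In all, 28 members passed the filter on low counts in the lymph node fit, of 295 with a count in either KI/+ sort, and 21 of them fell and 0 rose in KI/+ AGF+ cells, where 11% of all 15884 genes tested fell. Members that passed did so mostly through the AGF- cells, in which they are high, so that their count is no independent support. The median log2 fold change of the 28 was -4.58, against 0.01 over all genes tested. Without the libraries numbered 2, 11 members were called, and 10 when only these groups were fitted. Groups that did not overlap were seen for 24 of the 28 members and for 38.4% of all genes tested in KI/+, and for 19 of 28 and 39.6% in AireKO mice.

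Light chain V segments fell with the constant genes. Iglv1, Iglv2 and Iglv3, the lambda V segments, had 2, 19 and 35 counts in the 3 KI/+ AGF+ libraries together and 176, 122 and 190 in the AGF- libraries. Iglv3 fell by 2.74 ± 0.43 (adjusted p = 4.8e-04), and Iglv1 was 108-fold lower with a counting interval of 29.6 to 903 (adjusted p = 0.00274). Iglv2 fell by 2.95 ± 0.75 (adjusted p = 0.0127, and 0.0612 without library 1 of the AGF+ or 0.0527 without library 1 of the AGF- cells). The kappa segments Igkv1-135 and Igkv6-17 and the heavy chain segment Ighv1-39 had 0 counts in AGF+ cells, at least 11.5-, 11.5- and 20.1-fold lower than in AGF- cells against a floor of 3 counts over the group (adjusted p = 0.00618, 0.0288 and 8.51e-04). Igkv1-110, with 158, 8 and 27 counts in the AGF- libraries, fell by 4.40 ± 1.30 (adjusted p = 0.0273), and lost the call without any 1 of 4 libraries, reaching -2.47 and an adjusted p of 0.211 without library 1 of the AGF- cells.

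The heavy chain J segments had few counts in either sort. Ighj3 and Ighj4 fell by 1.96 ± 0.63 and 1.95 ± 0.63 (adjusted p = 0.0403 and 0.0411), each on 11 or 12 counts in AGF+ and 35 or 38 in AGF- cells, and each lost the call without any 1 of 4 libraries (adjusted p up to 0.118 and 0.17, both without library 1 of the AGF- cells). Without library 1 of the AGF+ cells Ighj3 differed by -2.74. Ighj2 did not pass the test (-1.54 ± 0.65, adjusted p = 0.113), and did with the replicate number as a block (adjusted p = 0.049). Igkv1-117 likewise was not called without the block (adjusted p = 0.15) and was with it (0.00375). The delta V segment Trdv4 had 0 counts in AGF+ cells and 9, 1 and 23 in the AGF- libraries (at least 13.6-fold lower, adjusted p = 0.0448), and lost the call without any 1 of 5 libraries, up to an adjusted p of 0.161 without library 3 of the AGF- cells.

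In AireKO mice 24 of the 28 members fell in AGF+ cells and 0 rose, where 13.3% of all genes tested fell, with 20 called without the libraries numbered 2 and 13 when only these groups were fitted. Ighm stood at 130, 126 and 138 CPM in AGF+ libraries, against 527, 781 and 964 CPM without the reporter (-2.53 ± 0.23, adjusted p = 4.76e-06), and Ighd fell by 4.08 ± 0.40 (adjusted p = 7.92e-06). Igkc stood at 3.01, 18.5 and 17.6 CPM in AGF+ and at 90.9, 236 and 821 CPM in AGF- cells (-4.90 ± 0.79, adjusted p = 4.7e-04, and -3.70 without library 3 of the AGF- cells). Trdc was 172-fold lower with a counting interval of 47.2 to 1423 (adjusted p = 0.0028), and its fitted log2 fold change of -7.22 ran from -9.86 without library 1 of the AGF+ cells to -6.55 without library 3 of the AGF- cells. Trbc1 fell by 4.57 ± 0.98 (adjusted p = 0.00348), and by 6.50 without library 3 of the AGF+ cells. Trac and Trbc2 overlapped between the sorts (adjusted p = 0.0177 and 0.0358), and each lost the call without any 1 of 3 libraries, up to 0.116 and 0.133 without library 3 of the AGF- cells. Trbc2 was also not called by DESeq2 (0.0951) or when only these groups were fitted (0.0568). The median of the 28 members was -4.53 on the log2 scale, against 0.01 over all genes.

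Marker genes of other cell types and of DCs themselves moved with the members. For comparison with the lists below, 11% of all genes tested fell in KI/+ and 13.3% in AireKO mice. The share of all genes that rose is not given. The summed level of 15 B cell markers was 370 to 417 CPM in KI/+ AGF+ and 664 to 1337 CPM in AGF- cells. In AireKO mice it was 404 to 450 against 985 to 1885 CPM. Of the 15, 13 fell in KI/+ and 14 in AireKO mice. Cd37, a tetraspanin also made by other leukocytes, was 267 to 275 CPM of the sum in KI/+ AGF+ and 182 to 248 CPM in AGF- cells. The 13 T cell markers summed to 43.9 to 57.2 CPM in KI/+ AGF+ and 67.8 to 331 CPM in AGF- cells and 10 of them fell, among them Cd3e of the T cell receptor complex (-3.33 ± 0.84, adjusted p = 0.0119). The 9 NK cell markers summed to 23.1 to 29.2 and 92.6 to 299 CPM, and 8 fell. The 10 conventional DC markers summed to 6580 to 7607 CPM in KI/+ AGF+ and 9198 to 10062 CPM in AGF- cells. Of these, 7 fell and 0 rose in KI/+, and 8 fell and 2 rose in AireKO mice. Of 12 plasmacytoid DC markers 6 fell and 1 rose in KI/+ mice, but their sums overlapped (891 to 958 and 817 to 1294 CPM). Of 6 plasma cell markers tested 5 fell in KI/+ mice. Over the 6 AGF- libraries the sums of T cell receptor members and of T cell markers had the same order, lowest in both libraries numbered 2 (67.8 and 84.6 CPM of markers) and highest in library 3 of AireKO. The part of these cell types in the difference was not tested.

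Other receptor genes were lower in AGF+ cells as well, where 11% (KI/+) and 13.3% (AireKO) of all genes tested fell. Of 11 further constant and joining chain genes 9 were tested, and 8 fell in KI/+ and 9 in AireKO mice. Among them in KI/+ mice were Iglc1 and Iglc3, lambda constant genes (-6.69 ± 1.08 and -4.68 ± 0.68, adjusted p = 6.44e-04 and 2.81e-04), and Ighg3, an IgG constant gene (-4.66 ± 0.93, adjusted p = 0.00284). Igha, the IgA constant gene, had 174, 84.1 and 104 CPM in the KI/+ AGF- libraries and 11.2, 22.1 and 1176 CPM in the AireKO ones, against at most 6.77 CPM in AGF+ cells (-5.43 ± 1.53, adjusted p = 0.0214, in KI/+). Jchain, which joins IgA and IgM into polymers, was highest in the same AireKO library 3, at 242 CPM against 6.91 and 12.6 CPM in the other AireKO libraries. Igha, Jchain, Igkc and the Ighv and Igkv sums were each highest in that library of all 21. The 24 D segments summed to at most 2.24 CPM in any library and none passed the filter. The 10 gamma genes named Tcrg, a list added after values were seen, summed to 4.24 to 44.9 CPM in AGF- and at most 0.669 CPM in AGF+ cells, and all 3 tested fell in both genotypes.

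The leading V segments of lymph node AGF- cells differed between libraries. Each of these libraries had counts for 41 to 77 Ighv and 39 to 77 Igkv segments. In library 1 of KI/+ Igkv1-110 held 50.6% of all Igkv counts and Ighv1-22 36.5% of Ighv counts. In library 2 of KI/+ Igkv2-109 led with 32.3%, in library 3 of AireKO Igkv1-117 with 25.4% and Ighv6-6 with 22.1%, and in library 1 of AireKO Ighv1-81 with 32.6%. The same segment led in no more than 2 of the 6 libraries: Igkv1-110 did so in library 1 of KI/+ and library 2 of AireKO.

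Over all libraries 77 members other than constant genes had at least 30 counts, and for 29 of them a single library held 50% or more, 12 Ighv, 16 Igkv and 1 Trbj. Library 3 of AireKO AGF- cells was that library for 13 and library 2 of KI/+ AGF- cells for 9. Igkv8-27 had 312 of 324 counts in the former (96.3%), Igkv9-124 245 of 263 and Ighv6-6 320 of 366, and Igkv2-109 had 189 of 209 counts in the latter. One of the 29 was from AGF+ cells: Igkv5-48 had 23 of 45 counts in library 2 of the AireKO group and 0 in the other AGF+ libraries. For segments with at least 20 counts, chi-square per degree of freedom over the 6 AGF- libraries was 23.9 for 33 Ighv and 28.9 for 34 Igkv segments, where 1 is the value of pure counting error. Over the 6 marrow AGF+ libraries it was 1.00 for 4 Ighv and 1.11 for 2 Igkv segments, on far fewer counts (319 against 3316 for Ighv). Leaving out the 29 segments lowered the immunoglobulin sum of AireKO library 3 from 2737 to 2257 CPM. Of the 54 Ighv and Igkv segments with at least 30 counts, 31 have another member at 95% identity or more, so that single segments are uncertain.

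**Figure D2:**
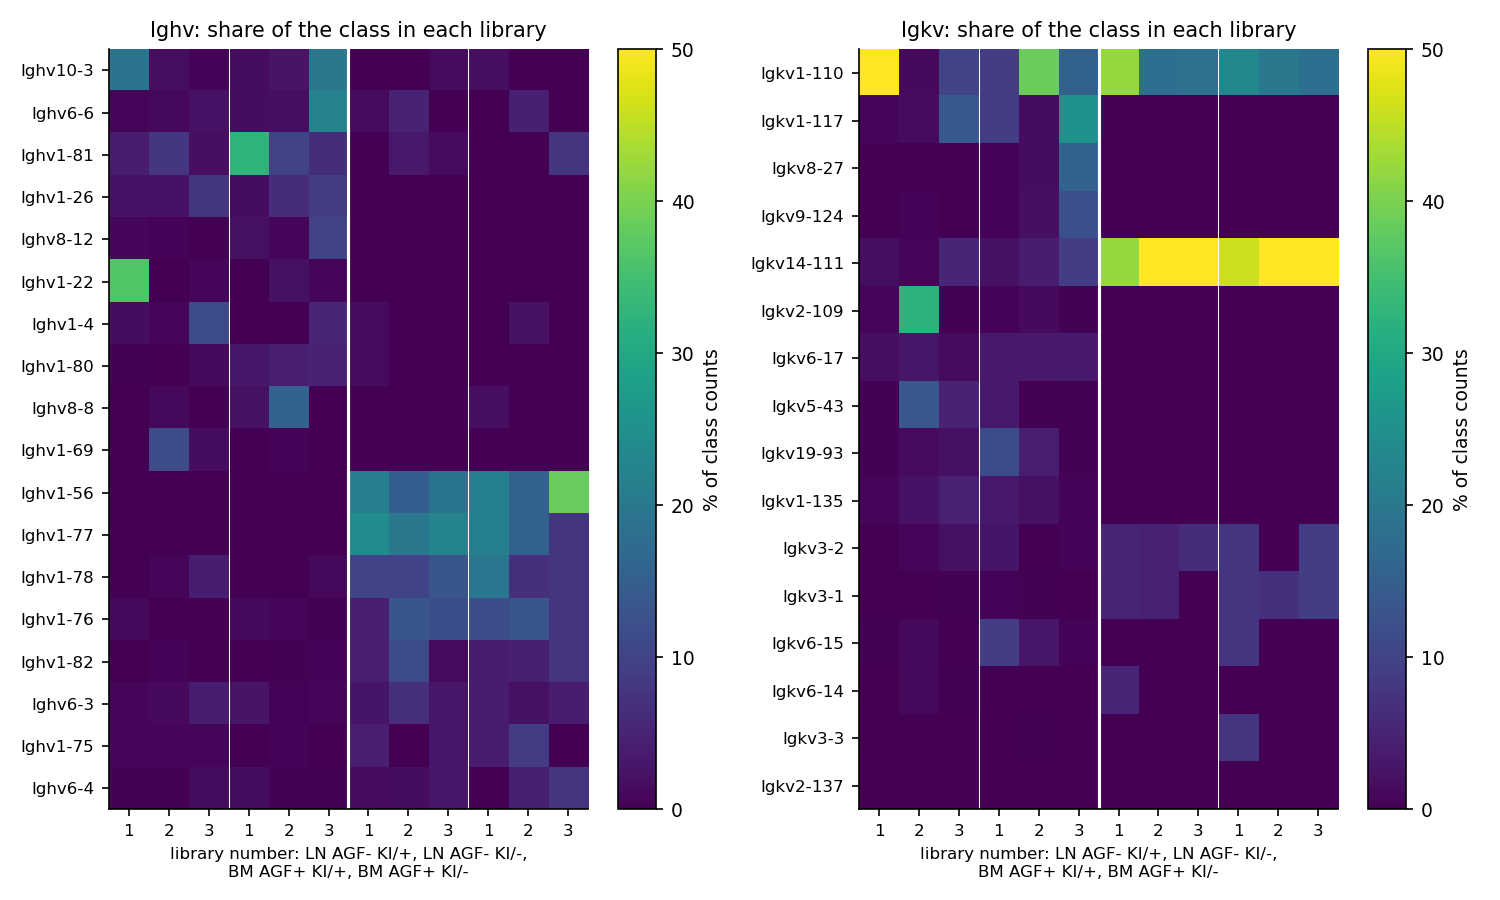
Share of all Ighv counts (left) and all Igkv counts (right) taken by single V segments in each lymph node AGF- and marrow AGF+ library, as percent of the class counts of that library (colour, ending at 50%), for the 10 segments with the most counts in lymph node AGF- cells and those of the 8 with the most in marrow AGF+ cells that are not among them. Lymph node AGF- libraries are led by different segments, such as Ighv1-22 in library 1 of KI/+ (36.5%), whereas Ighv1-56 and Ighv1-77 recur in the 6 marrow AGF+ libraries and have 0 counts in lymph node.

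The next comparison set marrow AGF+ cells against marrow total DCs of KI/+ mice. These sorts differ in gate as well as in the reporter, and gate and reporter cannot be told apart. All members tested were higher in AGF+ cells, 15 of 15, where 23.0% of all 15503 genes tested rose, and 14 without the libraries numbered 2. They passed the filter through the AGF+ cells, of 131 members with a count in either group, so that neither their count nor their direction is independent support. Their median log2 fold change was 5.30 against 0.02 over all genes. Ighm rose from 57.8, 81.1 and 27.2 CPM in total DCs to 386, 471 and 483 CPM (3.03 ± 0.30, adjusted p = 2.1e-05), and Ighd from 0.639, 0.205 and 0 to 14.7, 17.8 and 22.8 CPM (5.97 ± 0.44, adjusted p = 3.44e-06). Igkc stood at 22.4, 19.3 and 24.4 CPM against 0.426, 1.02 and 0.193 CPM (5.30 ± 0.33, adjusted p = 9.44e-07). The groups did not overlap for any of the 15, as for 51.5% of all genes tested. Ighd differed by 7.22 without library 1 and by 5.38 without library 3 of the total DCs, and Igkc by 6.08 without library 2. In total DCs Ighm made up 808 of the 853 immunoglobulin counts.

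The 4 heavy chain J segments printed above had 513 counts in the 3 KI/+ marrow AGF+ libraries and 3 in the total DC libraries. Ighj1 had 41, 55 and 69 counts against 1, 0 and 0, a ratio of 155 with a counting interval of 27.4 to 6149 (adjusted p = 5.09e-06). Ighj4 was 138-fold (24.4 to 5482), Ighj2 110-fold (19.3 to 4371) and Ighj3, with 0 counts in total DCs, at least 26.3-fold higher (adjusted p = 8.18e-06, 1.53e-05 and 1.31e-04). Over both genotypes Ighj1 had 265, Ighj4 253, Ighj2 197 and Ighj3 142 of the 857 Ighj counts. Without the total DC library that held their 1 count, the fitted log2 fold change went from 6.82 to 8.70 for Ighj1, from 6.33 to 8.20 for Ighj2 (library 1 for both) and from 6.65 to 8.52 for Ighj4 (library 2).

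Relative to Ighm, J segments stood higher and V segments lower in marrow AGF+ cells than in lymph node AGF- cells, with 2.01 to 3.70 against 6.51 to 29.1 Ighv counts per 100 Ighm counts. There were 6.39, 7.47 and 7.67 Ighj counts per 100 Ighm counts in KI/+ and 7.70, 7.14 and 7.58 in AireKO marrow AGF+ libraries, against 2.78, 0.939 and 1.03 and 3.54, 1.46 and 1.29 in lymph node AGF- cells and 0.446 to 2.84 in lymph node AGF+ cells. The marrow libraries lay above all lymph node libraries. Ighv counts per 100 Ighj counts were 26.5 to 57.9 in marrow AGF+ and 184 to 2258 in lymph node AGF- libraries, again without overlap. For kappa there were 14.5 to 17.5 Igkj counts per 100 Igkc counts in marrow AGF+ libraries and 1.11 to 5.75 in lymph node AGF- libraries, and 11.7 to 21.8 Igkv counts per 100 Igkc against 31.7 to 49.9. Igkc per 100 Ighm was 4.10 to 6.38 in marrow AGF+ and 17.2 to 85.1 in lymph node AGF- cells. Lymph node AGF+ libraries overlapped those of marrow AGF+ cells in Igkc per 100 Ighm (1.62 to 14.6) and Ighv per 100 Ighm (2.84 to 6.101), and did not in Ighv per 100 Ighj (100 to 1367), Igkj per 100 Igkc (0 to 5.56) or Igkv per 100 Igkc (30.2 to 66.7). Their ratios rest on few counts in each library, 0 to 2 of Igkj, 3 to 22 of Ighj, 8 to 36 of Igkv and 12 to 92 of Igkc. These ratios were chosen after values were seen and are given without a test.

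**Figure D3:**
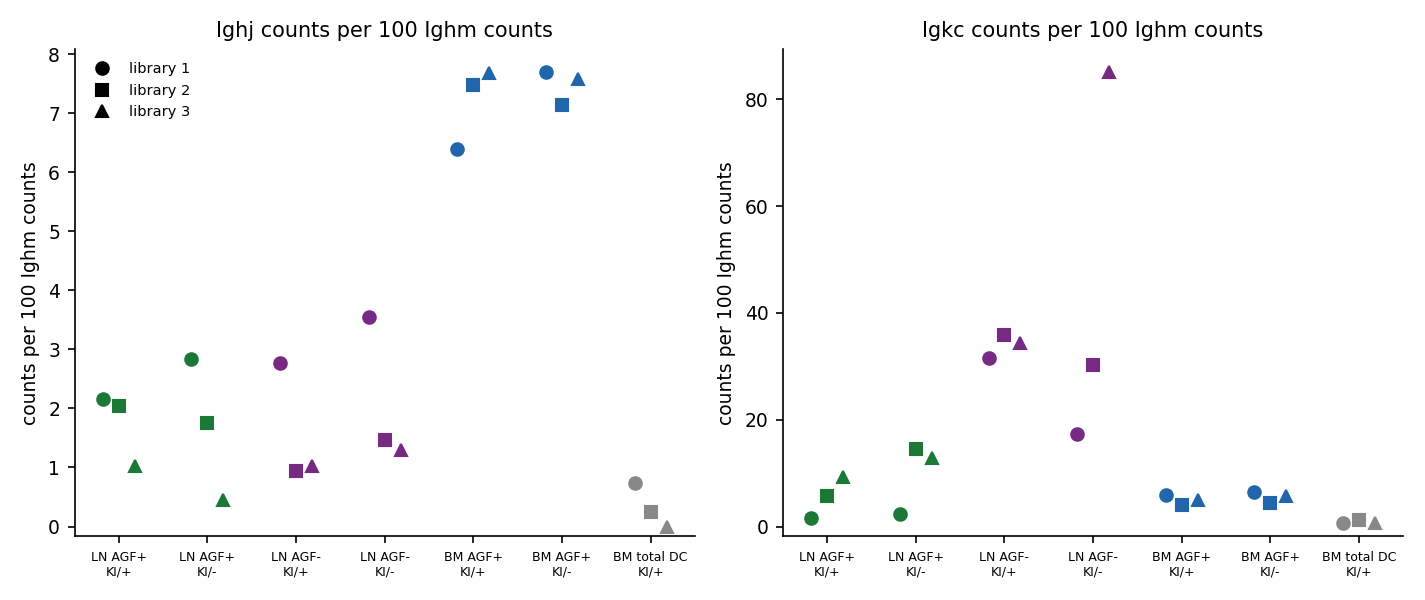
Ighj counts per 100 Ighm counts (left) and Igkc counts per 100 Ighm counts (right) in each library, on linear axes, with 1 point per library and the library number as the symbol. Marrow AGF+ libraries lie at 6.39 to 7.70 on the left, above all others, and at 4.10 to 6.38 on the right, below all lymph node AGF- libraries (17.2 to 85.1) and among the lymph node AGF+ libraries (1.62 to 14.6).

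The same V segments recurred in marrow AGF+ libraries. These had 11 to 22 Ighv segments with counts, on 26 to 70 Ighv counts each against 184 to 1445 in lymph node AGF- libraries. In 20 counts drawn from each library, 8.21 to 11.3 Ighv segments are expected in marrow AGF+ and 9.03 to 14.7 in lymph node AGF- cells, so that the groups overlapped. Ighv1-56 had 15, 9 and 13 counts in KI/+ and 11, 7 and 10 in AireKO libraries, and Ighv1-77 had 17, 12 and 15 and 11, 7 and 2. Neither had a count in any of the 12 lymph node libraries, which held 3493 Ighv counts, and together they made up 40.4% of the 319 Ighv counts in marrow AGF+ cells. Against total DCs, Ighv1-77 was at least 13.8-fold and Ighv1-56 17.4-fold (4.48 to 149) higher (adjusted p = 4.9e-04 and 4.49e-04). The block of 11 segments from Ighv1-75 to Ighv1-83 (chromosome 12, 115833950 to 115964250), chosen after values were seen, held 59.2% of marrow AGF+ and 13.6% of lymph node AGF- Ighv counts. Ighv1-78 had 37 and Ighv1-76 33 counts in marrow AGF+ cells. Among kappa segments, Igkv14-111 took 60 of 96 Igkv counts in the 6 marrow AGF+ libraries (2.98 ± 0.54 over total DCs, adjusted p = 0.00111), and Igkv1-110, a frequent segment of lymph node AGF- cells, 23. Igkv14-111 had counts in all 21 libraries. Marrow total DCs were led by the same segments on few counts, Ighv1-56 with 20% of 10 Ighv and Igkv14-111 with 40% of 10 Igkv counts.

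Lambda V segments were counted without most of the lambda constant genes. Iglv2 had 29, 31 and 29 counts and Iglv3 38, 25 and 32 in KI/+ marrow AGF+ libraries (3.73 ± 0.37, adjusted p = 2.25e-05, and 44.6-fold with an interval of 12 to 373, adjusted p = 2.75e-05, over total DCs). Iglv1 had 0 counts in all 6 marrow AGF+ libraries and 426 in the 6 lymph node AGF- libraries. Iglv1 and Iglv2 share 96.72% of their transcript bases. Iglc1 was at most 0.204 CPM and Iglc2 at 0 in every marrow AGF+ library, while Iglc3 stood at 1.27 to 3.03 CPM.

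The T cell receptor members counted in marrow AGF+ cells were mostly of the alpha and delta loci, which share 1 region of chromosome 14. Gamma J members had 1 to 3 counts in each of the 6 libraries and 0 in total DCs, and the 10 Tcrg genes summed to 4.91 to 10.3 CPM against 1.74 to 5.33 CPM in total DCs. Trdc (54142851 to 54148868) had 16.9, 19.1 and 17.7 CPM in KI/+ libraries, 11.5, 15.8 and 13.2 CPM in AireKO libraries and 0 counts in total DCs (at least 88.2-fold higher in KI/+, adjusted p = 1.5e-06). The libraries held 8 to 16 counts of Trdj1 and Trdj2 together, and 0 or 1 of the V segments named Trdv. V segments named for alpha and delta alike, such as Trav15-2-dv6-2, were counted with the alpha members and are described below. Trac rose by 3.71 ± 0.59 (adjusted p = 4.74e-04, and by 5.23 without library 2 of the total DCs), at 5.10, 2.87 and 6.06 CPM. All beta members together had 4 counts in the 6 libraries, against 1358 in the 6 lymph node AGF- libraries. Delta members were at 13.7 to 21.1 CPM and beta members at 0 to 0.427 CPM in marrow AGF+ cells, and at 1.61 to 49.0 and 9.68 to 76.2 CPM in lymph node AGF- cells.

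Alpha V segments recurred as well. On few counts, Trav15-2-dv6-2 also led in marrow total DCs, with 38.1% of 21 Trav counts. Trav15-2-dv6-2 (53649404 to 53649994, plus strand), which can join to alpha or delta J segments, had 14, 12 and 16 counts in KI/+ and 16, 6 and 9 in AireKO marrow AGF+ libraries (2.26 ± 0.59 over total DCs, adjusted p = 0.0094, and 3.05 without library 2 of the total DCs). Trav14-1 had 51, Trav3-3 30, Trav15-1-dv6-1 28 and Trav14-2 19 counts in the 6 libraries. These 5 neighbours, from 53554022 to 53666506, held 81.4% of 247 Trav counts there and 14% of 100 Trav counts in lymph node AGF- cells, and were grouped after values were seen. Trav3-3 and Trav15-2-dv6-2 have copies elsewhere in the locus at 98.55% and 97.57% identity. Alpha J counts were spread over 44 segments, the most frequent, Traj39, holding 7.84%.

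**Figure D4:**
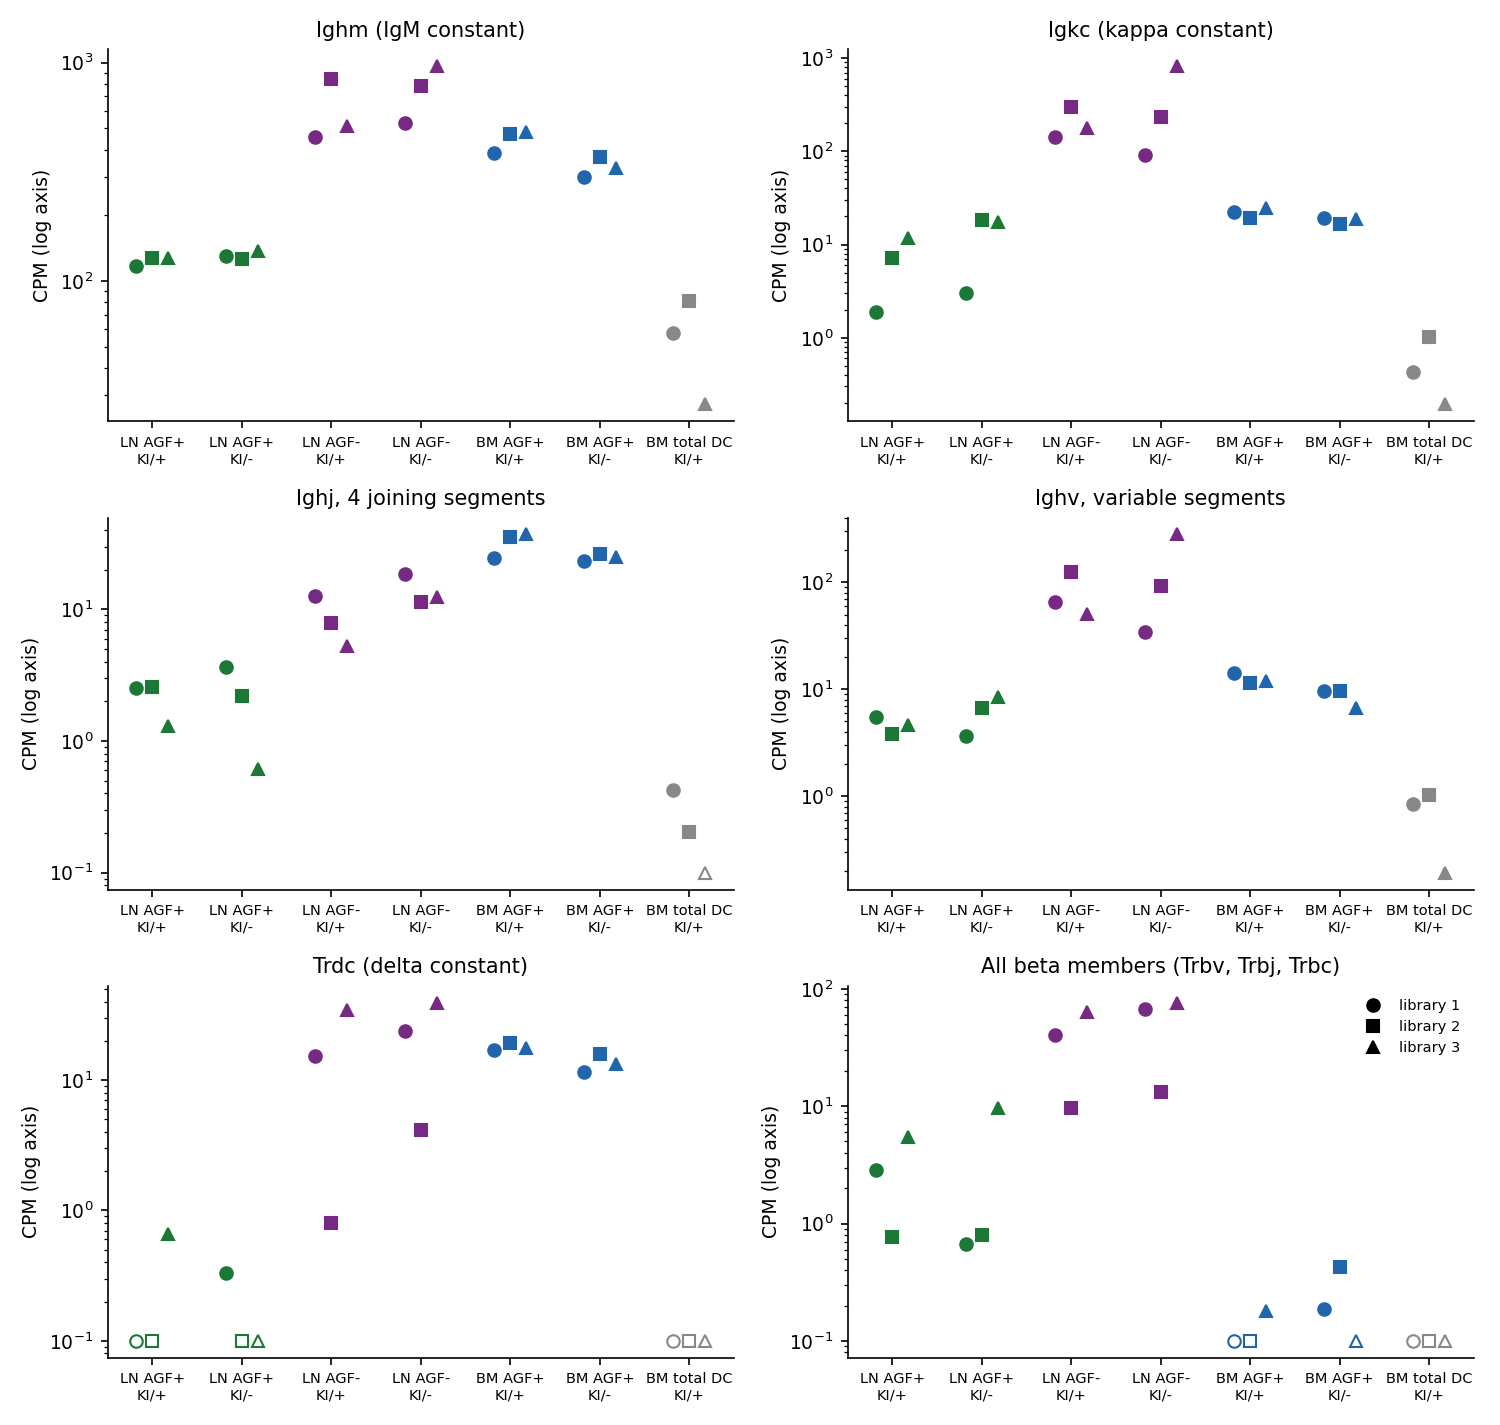
Level of 6 receptor classes in each library, in CPM on log axes, with 1 point per library and the library number as the symbol; hollow symbols at the bottom of a panel mark libraries with 0 counts, drawn at 0.1. Ighj and Trdc are high in marrow AGF+ cells (23.1 to 37.1 and 11.5 to 19.1 CPM) where the beta members are at 0 to 0.427 CPM, while Ighv, Igkc and the beta members are highest in lymph node AGF- cells. Trdc runs from 0.807 to 39.3 CPM in lymph node AGF- libraries, below and above its marrow AGF+ levels.

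Some of the genes that act with receptor loci were also higher in marrow AGF+ cells. Of 12 recombination genes 11 were tested and 6 rose, where 23.0% of all genes tested did. The other 5, among them the end-joining genes Lig4, Xrcc4 and Nhej1, did not pass the test (-0.29 ± 0.30, -0.31 ± 0.21 and 0.13 ± 0.26, adjusted p = 0.456, 0.256 and 0.715). Dntt, which encodes terminal deoxynucleotidyl transferase, an enzyme that adds bases at receptor joins, had 55.5, 97.1 and 105 CPM against at most 0.213 CPM in total DCs (642-fold, interval 177 to 5303, adjusted p = 3.78e-07). Rag1, 1 of the RAG recombinase genes, had 3.26, 6.13 and 5.35 CPM and 0 counts in total DCs (at least 24.4-fold, adjusted p = 8.04e-05). Xrcc6, of the Ku end-joining complex, rose by 1.23 ± 0.18 (adjusted p = 2.71e-04). Of 17 transcription factors and receptors linked to opening of these loci, 15 were tested, and 10 rose and 1 fell. Spib, Pax5 and Lef1 rose by 3.08 ± 0.25, 4.77 ± 0.39 and 1.77 ± 0.19 (adjusted p = 6.68e-06, 6.68e-06 and 3.83e-05), and Irf4 fell by 0.90 ± 0.11 (adjusted p = 6.81e-05).

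Further constant genes were higher in marrow AGF+ cells than in total DCs. All 4 tested of the 11 other receptor genes rose, where 23.0% of all genes tested did. Ighe, the IgE constant gene, stood at 63.8, 95.5 and 118 CPM in KI/+ marrow AGF+ libraries, at 67.2, 67.7 and 97.1 CPM in the AireKO ones, and at most at 1.31 CPM in every other library (9.97 ± 0.50 over total DCs, adjusted p = 3.38e-07). Jchain rose by 4.75 ± 0.28 (adjusted p = 7.78e-07), and Igha was 144-fold higher (interval 25.5 to 5742, adjusted p = 2.3e-05). Of the signalling partners, Cd79b rose by 2.42 ± 0.16 (adjusted p = 1.79e-06) to 90.0 to 127 CPM over both genotypes, while Cd79a, with which its protein pairs in the B cell receptor, stayed at 0.357 to 1.27 CPM. Ptcra, the pre-T-cell receptor alpha chain, rose by 3.89 ± 0.48 (adjusted p = 9.03e-05). The surrogate light chain genes Igll1 and Vpreb1 were at most 0.510 and 0.255 CPM. Cd79a, Igll1 and Vpreb1 did not pass the filter.

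Markers of other cells were split in marrow AGF+ cells. The 15 B cell markers summed to 344 to 449 CPM, against 131 to 139 CPM in total DCs, with 9 of 12 tested higher and 2 lower. Of all genes tested in that comparison 23.0% rose. Most of the sum came from Cd79b (90.0 to 127 CPM), Cd37 (91.9 to 106 CPM) and Blk, a kinase shared by B cells and plasmacytoid DCs (70.5 to 117 CPM). Ms4a1, which encodes CD20, was at 1.63 to 6.06 CPM, against 0.213, 0.410 and 0.386 CPM in total DCs and 37.3 to 146 CPM in lymph node AGF- cells. The 13 T cell markers summed to 246 to 360 CPM, of which Thy1 alone was 193 to 313 CPM, and Cd3e was at 0 to 0.535 CPM. The 12 plasmacytoid DC markers summed to 1808 to 2029 CPM against 688 to 813 CPM, and 9 rose and 2 fell. Of 8 conventional DC markers tested 1 rose and 3 fell, on sums that overlapped (5287 to 6180 in KI/+ against 4589 to 5959 CPM). Of 5 plasma cell markers tested 2 rose and 2 fell, on lower sums (318 to 350 in KI/+ against 365 to 466 CPM). All 3 NK cell markers tested rose, as did 2 of 4 markers of group 3 innate lymphoid cells. The part of these cell types was not tested beyond these values.

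Between tissues, AGF+ cells were compared within genotype in 1 fit of all 21 libraries, in which 34 members passed the filter. They passed mostly through groups in which they are high, marrow AGF+ or lymph node AGF- cells. Neither the count nor the direction of their calls is therefore independent support, in either genotype. The gates of the AGF+ cells also differ between the tissues, so that tissue and gate cannot be told apart. In KI/+ mice 14 members were lower in lymph node and 0 higher, where 27.0% of all 17265 genes tested fell, and 12 were lower without the libraries numbered 2. Groups did not overlap for 17 of the 34 members and for 61.4% of all genes tested. The heavy chain J segments were among them. Ighj1 and Ighj4 differed by -4.83 ± 0.55 and -3.72 ± 0.50 (adjusted p = 3.82e-07 and 3e-06), while Ighm fell by 1.85 ± 0.27 (adjusted p = 1.04e-05). Ighv1-56, Ighv1-77 and Trav15-2-dv6-2 had 0 counts in lymph node AGF+ cells and were at least 13.7-, 16.3- and 15.6-fold lower (adjusted p = 5.47e-05, 1.72e-04 and 1.01e-04), although DESeq2 did not call Ighv1-77 (adjusted p = 0.0762). Trdc was 105-fold lower (interval 35.4 to 510, adjusted p = 2.56e-04), and its fitted log2 fold change of -6.50 was -9.54 without library 3 and -5.90 without library 2 of the lymph node cells. Igkc fell by 1.72 ± 0.70 (adjusted p = 0.0425), a call lost by DESeq2 (0.0511) and without any 1 of 5 libraries, up to an adjusted p of 0.167 without library 1 of the lymph node cells.

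The beta constant genes pointed the other way. Trbc2 had 10, 2 and 18 counts in KI/+ lymph node AGF+ cells and 0 in marrow AGF+ cells (at least 8.99-fold), and did not pass the test (adjusted p = 0.0895) although the groups did not overlap. DESeq2 called it (adjusted p = 0.0143). Trbc2 had 0, 2 and 32 counts in AireKO lymph node cells and 0 in marrow (adjusted p = 0.0809, and 0.0141 by DESeq2), with groups that overlapped. In AireKO mice 12 members were lower in lymph node and 0 higher, where 25.7% of all genes tested fell, and 12 without the libraries numbered 2. Groups did not overlap for 12 of the 34 and for 64.5% of all genes tested. Ighj1 and Ighm differed by -3.96 ± 0.56 and -1.34 ± 0.27 (adjusted p = 6.15e-06 and 3.48e-04), and Trdc was 106-fold lower (interval 29.0 to 885, adjusted p = 6.93e-04). Without library 1 of the lymph node cells Ighj1 differed by -5.00, and the fitted log2 fold change of Trdc went from -6.49 to -9.12. Igkc did not pass the test (-0.51 ± 0.67, adjusted p = 0.547). Ighv1-77 was at least 7.58-fold lower (adjusted p = 0.00165), and again not called by DESeq2 (0.16). The median of the 34 members was -1.03 in KI/+ and -0.07 in AireKO mice, against 0.04 over all genes in both.

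Of the recombination genes 7 of 11 were lower in lymph node than in marrow AGF+ cells of KI/+ mice, where 27.0% of all genes tested fell. Dntt had 0 counts in KI/+ lymph node AGF+ cells (at least 507-fold lower, adjusted p = 2.22e-09), Hmgb2 fell by 2.79 ± 0.26 (adjusted p = 2.82e-08) and Rag1 was 28.9-fold lower (interval 9.54 to 143, adjusted p = 3.38e-05). Spib and Tcf7 did not pass the test (0.14 ± 0.24 and -0.43 ± 0.32, adjusted p = 0.647 and 0.263), and Lef1 fell by 4.21 ± 0.72 (adjusted p = 5.53e-05).

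Lymph node AGF- cells were set against marrow total DCs, both of KI/+ mice. Of 34 members tested 28 were higher in lymph node, where 28.8% of all genes tested rose, and 1 was lower, where 27.3% fell, with 24 members called without the libraries numbered 2 and 11 when only these groups were fitted. Groups did not overlap for 28 of the 34 and for 60.0% of all genes tested. Members that passed the filter did so mostly through groups in which they are high, so that their count is no independent support. Ighd rose by 7.86 ± 0.58 (adjusted p = 9.3e-10), Ighm by 3.44 ± 0.29 (adjusted p = 7.41e-09) and Igkc by 8.51 ± 0.97 (adjusted p = 3.78e-07). Without library 1 of the total DCs Ighd differed by 9.10, without library 3 by 7.26, and without library 2 Igkc differed by 9.28. Trbc1, Trdc and Trbc2 had 0 counts in total DCs and were at least 56.5-, 82.1- and 78.7-fold higher (adjusted p = 2.86e-04, 2.29e-04 and 0.00158). The lower member was Trav15-2-dv6-2, with 0, 5 and 3 counts in total DCs and 0 in KI/+ AGF- cells (at least 2.56-fold, adjusted p = 0.0216), a call lost without library 2 of either group (adjusted p = 0.0524 and 0.0861). The sorts differ in tissue and gate alike, and these cannot be told apart. B cell markers were at 664 to 1337 CPM in AGF- cells against 131 to 139 CPM, and all 15 rose.

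To ask whether receptor levels depend on the genotype, AireKO cells were compared with KI/+ cells of the same sort. No member was called in lymph node AGF+ cells (0 of 28, with 0 at an unadjusted p under 0.05 and 0 by DESeq2, where 0.0126% of all genes were called) or in marrow AGF+ cells (0 of 15, 0 unadjusted and 0 by DESeq2, where 0.0129% were called). In lymph node AGF- cells 0 of 28 were called, with 6 at an unadjusted p under 0.05 and 0 by DESeq2, where 0.00630% of all genes were called and 5.97% had such a p. Ighm differed by 0.07 ± 0.22 in lymph node AGF+, 0.31 ± 0.22 in lymph node AGF- and -0.42 ± 0.27 in marrow AGF+ cells on the log2 scale (AireKO minus KI/+, adjusted p = 0.987, 0.857 and 1). Igkc differed by 0.92 ± 0.88, 0.86 ± 0.64 and -0.28 ± 0.20 (adjusted p = 0.967, 0.871 and 1). Trdc differed by 0.38 ± 0.80 in lymph node AGF- and -0.41 ± 0.19 in marrow AGF+ cells (adjusted p = 0.956 and 1). In marrow, 5 of the 15 members had groups that did not overlap, Ighm, Igkc, Trdc, Iglv2 and Ighv1-77, all lower in AireKO, against 6.69% of all genes tested. They did not overlap for 0 of 28 members in lymph node AGF+ and 1 of 28, Ighv1-39, in AGF- cells, against 10.3% and 8.96% of all genes tested.

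Without the filter on low counts, 29 of 380 members were called between genotypes in lymph node AGF- cells, 17 higher and 12 lower in AireKO, where 0.821% of all 32883 genes were called. For 22 of these the groups overlapped, and 23 are among the segments of which 1 library held 50% or more. Groups did not overlap for 7 of the 29, against 37.8% of all genes called in that fit and 6.94% of all genes in it. Of the 7, 5 were also held mostly by 1 library: Igkv8-27 (96.3%), Ighv8-12 (90.2%), Ighv1-59 (67.7%), Ighv1-80 (67.3%) and Igkv6-25 (53.8%). The other two were Ighv4-1, with 0, 0 and 0 counts in KI/+ and 5, 11 and 4 in AireKO, and Ighv1-39, with 26, 13 and 10 and then 2, 6 and 5. The interaction of genotype with sort in lymph node called 0 of 28 members, with 1 at an unadjusted p under 0.05, where 0.00630% of all genes were called. The interaction of genotype with tissue in AGF+ cells called 0 of 34, with 1 such p, where 0% of all genes were called.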

How the data were processed

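Read counts per Ensembl gene, as deposited by the authors, cover all 21 libraries, which were made from 1.0 ng of RNA with Ovation SoLo kits and paired-end reads of 150 bases, per the labels' protocols. Tools in the submitters' processing notes are HTSeq 0.11.2, STAR 2.7.3a, edgeR 3.38.1, fastp 0.20.0, Picard 2.21.1 and SAMtools 1.9, with mm10 as the build. The sources used here give neither the annotation release nor the strand setting, nor how reads matching several genes were counted, so counts of close copies and of overlapping genes such as Trdc and Trdv5, on opposite strands, may be split or shared. The deposited normalized table of the authors (unit: signal, 17265 genes) was used only for which genes it lists, 34 of them members. Symbols, coordinates and transcript sequences came from GENCODE M21 on GRCm38, and 327 genes with 0.0139% of counts had no symbol.

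Genes were tested with the quasi-likelihood test of edgeR 4.0.16 in R 4.3.3, after TMM scaling and filterByExpr, with Benjamini-Hochberg adjustment over all genes tested and calls at 0.05, in 1 fit of the 12 lymph node libraries, 1 of the 9 marrow libraries and 1 of all 21. Values are log2 fold changes of 3 libraries against 3 ± SE, and class sums are described without a test. The SE is the size of the log2 fold change divided by the square root of the F statistic of its test. It thus rests on the spread estimated over all libraries of the fit. Folds against 0 counts use a floor of 3 counts over the group, and those against 1 to 3 counts an exact 95% interval, both for counting error only. Named were the constant genes, up to 3 leading segments of each class with at least 30 counts, the first calls of each comparison by adjusted p, segments of which 1 library holds 50% or more, and up to 4 called genes of each other list. Other genes and ratios were chosen after their values were seen, as was the list of Tcrg genes. The members and lists were chosen with earlier results of these data known. Alternatives were DESeq2 1.42.0 size factors and its Wald test, library size alone, no filter, the replicate block, fits of only the groups compared, and each library or the libraries numbered 2 left out. Deviations of same-numbered libraries from their group means correlated at 0.189 to 0.591 within tissues and 0.0289 to 0.382 across them. Within tissues, and for lymph node AGF- with marrow total DCs, the same number always correlated best. Between tissues in AGF+ cells it did not for number 3 in either genotype. Genotypes are separate mice and the libraries numbered 2 share high Xist, so the correlations do not show which libraries share a mouse. The main tests used no block. The test, tested on simulated counts in the layout of the KI/+ lymph node comparison (15884 genes), recovered 188 of 200 changed genes with 7 false calls. The simulation gave all genes the same spread and changed only genes expected at 30 or more counts in an average library. Most members have fewer counts and several spread more, so these rates do not carry over to them. One marker gene of a list is not reported here by name.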

Additional observations from a re-analysis of the deposited data

How the results depend on the processing

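No call of a named gene reversed. Of the settings of named genes, 2163 left the call as it was, 75 ended it and 38 added one. Without the filter on low counts, members called went from 21 to 81 and from 24 to 96 (lymph node AGF+ against AGF- cells in KI/+ and AireKO), 0 to 2 and 0 to 29 (genotype in lymph node AGF+ and AGF- cells), 15 to 30 (marrow AGF+ against total DCs), 14 to 33 and 12 to 32 (between tissues in KI/+ and AireKO), 29 to 98 (lymph node AGF- against total DCs) and 0 to 1 in each interaction. With only the groups compared, fewer members passed the filter, and 10 (KI/+) and 13 (AireKO) were called between lymph node sorts and 11 between AGF- cells and total DCs. Without the libraries numbered 2, 11 were called between the KI/+ sorts. Leaving out single libraries gave 18 to 21, 24 to 33, 15 to 16, 14 to 16, 12 to 15 and 31 to 39 calls in these comparisons and 0 between genotypes. With the replicate number as a block, calls went from 21 to 24, 24 to 25, 15 to 15, 14 to 18, 12 to 14 and 29 to 30. The block changed the call of Ighj2 and Igkv1-117 in KI/+ lymph node, and of Igkv1-117 between AGF- cells and total DCs. It also changed those of Trac, Trbc1, Trbc2 and Igkv14-111 between tissues, where AGF+ libraries numbered 3 did not correlate best with each other. Immunoglobulin sums of V and J segments alone differed by -3.96 and -4.57 (log2; all members -2.85 and -3.30) between lymph node sorts, 4.81 (3.24) over total DCs in marrow, -2.24 and -1.60 (-1.87 and -1.32) between tissues and 6.53 (4.22) for AGF- cells over total DCs. The T cell receptor sum between tissues in AireKO was -2.26, and -4.12 to -1.80 with single libraries left out, the former without library 3 of the lymph node cells. Between genotypes in lymph node AGF+ cells it was 0.35, and -1.51 to 1.18. Sums without the 29 segments held mostly by 1 library, an alternative chosen after seeing the data, kept their direction. Segments with few counts limit what can be called at this depth.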
